A study of Mus musculus with 4 samples.

Results

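The fibroblasts of 2 mouse heart libraries taken after myocardial infarction were split by eGFP, a green fluorescent reporter whose RNA was counted along with that of the genes. A reporter-positive fibroblast had at least 2 eGFP UMIs and a reporter-negative one had 0, where a UMI (unique molecular identifier) counts 1 captured RNA molecule. The comparison held 1797 cells of 41766 barcodes in the whole series. In the control library 367 cells were reporter-positive and 321 reporter-negative, and in the deletion-labelled library 351 were reporter-positive and 758 reporter-negative. Fibroblasts were barcodes with at least 500 UMIs, at most 20% mitochondrial UMIs, and at least 10 UMIs of Col1a2, Dcn and Pdgfra together per 10000. They also had no UMI of Ptprc, a leukocyte gene, or Cdh5, an endothelial gene, and at least 5000 UMIs in total. The cells were thus chosen by the measured values of these genes, the total and eGFP, so the levels of these are given only as descriptions.

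Both libraries came from heart tissue after tamoxifen and an infarction, taken 3 days later according to the design of the series. The genotype label of the control is Tcf21-MerCreMer, and that of the other library is Tcf21-MerCreMer:flox. Cells that were alive and nucleated were sorted from digested tissue and read from the 3′ end of their RNA by droplet sequencing. Each group was 1 library, and the labels give neither the number of animals, nor the part of Tcf21 that is floxed, nor the allele that carries eGFP. The reporter comparison was made within each library, and the 4 libraries, which differ in genotype label or infarction, were not pooled. No test was therefore made, no p-value is given, and every interval covers counting error only and not the spread between animals.

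TCF21 is a transcription factor of the mesenchyme that marks the resident fibroblasts of the adult heart. MerCreMer is a Cre recombinase between mutated estrogen receptor domains, which enters the nucleus and cuts at lox sites only when tamoxifen is bound. After infarction resident fibroblasts divide and turn into activated fibroblasts and myofibroblasts, which lay down collagen and contractile proteins. A reporter that Cre switches on marks cells in which Cre has cut, whereas cells of the same heart in which it has not cut stay unmarked.

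The infarction libraries held 129704045 UMIs in the control and 127757911 in the deletion-labelled library. Within the limits were 9956 and 10361 barcodes, of which 761 and 1222 were fibroblasts by the rule. Within a library the groups were of like depth and quality. The median fibroblast had 32051 UMIs when positive and 29571 when negative in the control, against 19563 and 18517 in the deletion-labelled library. Median mitochondrial shares were 2.24% and 2.29% in the control, against 3.31% and 3.42% in the deletion-labelled library. The libraries shared 19 barcodes, none of them among the cells compared. Possible doublets (2 cells in a droplet) were kept here and removed in an alternative, which marked 35 cells compared in the control and 64 in the deletion-labelled library. The markers of fibroblasts matched the label: Col1a1 stood between 3304 and 3669 CPM (counts per 1000000 UMIs of the summed group) in all 4 groups.

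eGFP split the fibroblasts into cells with almost none and cells with many. Reporter-positive cells had a median of 87 eGFP UMIs in the control (quartiles 45.5 and 128) and 42 in the deletion-labelled library (20.5 and 80). In the control 341 of the 367 positive cells had at least 10 eGFP UMIs and 26 had 2 to 9, and in the deletion-labelled library these numbers were 316 and 35. These UMIs are not scaled for depth, and positive cells of the control were deeper, with medians of 32051 against 19563 UMIs. Scaled for depth, eGFP in cells with at least 10 eGFP UMIs stood at 2934 CPM in the control and 2563 CPM in the deletion-labelled library. Just outside the limit, 73 and 113 fibroblasts had exactly 1 eGFP UMI and entered neither group. The positive share was 48.2% of the control fibroblasts (exact Clopper-Pearson 95% interval 44.6% to 51.8%) and 28.7% of the deletion-labelled ones (26.2% to 31.4%). Without infarction the shares were 43.5% and 21.0%, so the deletion-labelled library had the lower share at both stages. With the limit at 10 eGFP UMIs the deletion-labelled share after infarction was 25.9%.

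Leukocytes with at least 5000 UMIs and no UMI of the fibroblast genes served as cells that should lack the reporter. At least 2 eGFP UMIs were found in 5.81% of 2635 of them in the control (median 14572 UMIs) and in 5.05% of 2098 in the deletion-labelled library (median 13804.5 UMIs). At least 10 eGFP UMIs were found in 1 leukocyte of each library. The lowest range of reporter-positive cells, with 2 to 9 UMIs, thus overlapped this background, while the upper range did not, apart from those 2 leukocytes. These leukocytes were shallower than the fibroblasts compared and were chosen to lack fibroblast UMIs, so the background within the fibroblasts was not measured.

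**Figure D1:**
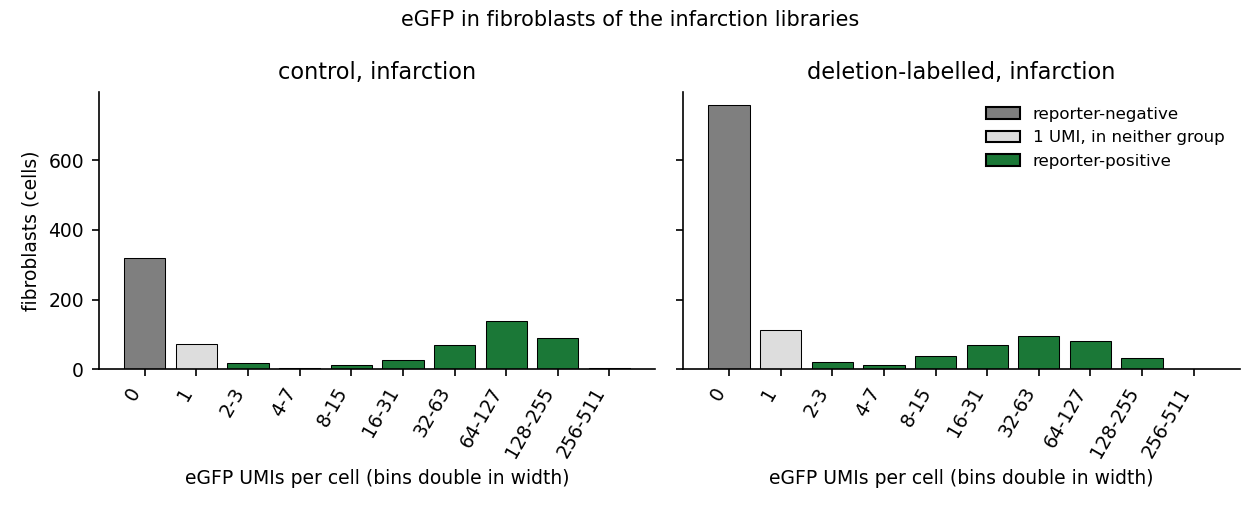
Number of fibroblasts (vertical axis, cells) by eGFP UMIs per cell (horizontal axis, bins that widen to the right) in the 2 infarction libraries. Grey bars are reporter-negative cells, pale bars cells with 1 UMI and green bars reporter-positive cells, most of which, 341 and 316 cells, had at least 10 UMIs.

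MerCreMer RNA followed the reporter. In the control all 18 MerCreMer UMIs of the cells compared lay in 18 reporter-positive cells (1.47 CPM), and none in the 321 reporter-negative cells. All 29 UMIs of the deletion-labelled library lay in 26 reporter-positive cells (3.49 CPM), and none in the 758 reporter-negative cells. With the count of 0 raised to a floor of 3 UMIs, the reporter-positive level was 4.81-fold higher in the control and 19.8-fold higher in the deletion-labelled library. These folds leave out the counting error of the 18 and 29 UMIs and are not lower limits. Over all barcodes within the limits of UMIs and mitochondrial share, cells with at least 10 eGFP UMIs held 23 MerCreMer UMIs in the control and 35 in the deletion-labelled library, and cells with 0 eGFP UMIs held 1 and 2. Without infarction MerCreMer stood higher and split the same way, at 17.7 against 0.36 CPM in the control and 11.9 against 1.03 CPM in the deletion-labelled library. The low level after infarction means that most reporter-positive cells had no MerCreMer UMI, and its absence from a cell is not informative at this depth.

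Tcf21 (ENSMUSG00000045680, mm10 chromosome 10, 22817281 to 22820174, minus strand), the gene named by the deletion, differed between reporter classes in the deletion-labelled library and hardly at all in the control. In the control it stood at 24.5 CPM in reporter-positive fibroblasts (exact Poisson 95% interval 21.8 to 27.5, 300 UMIs in 152 cells) and at 22.3 CPM in reporter-negative ones (19.5 to 25.5, 219 UMIs in 121 cells). The log2 ratio was 0.14 with an exact conditional interval from -0.12 to 0.39, which spans 0. Reporter-positive fibroblasts of the deletion-labelled library stood at 19.0 CPM (16.2 to 22.2, 158 UMIs in 92 cells) and the reporter-negative ones at 42.5 CPM (39.4 to 45.7, 723 UMIs in 363 cells). There the log2 ratio was -1.16 (-1.42 to -0.91). The difference of the log2 ratios, deletion-labelled minus control, was -1.29 with a counting interval from -1.65 to -0.94.

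The library labelled as the deletion therefore had less Tcf21 in its reporter-positive cells than in its reporter-negative cells, while RNA of the gene did not disappear. Between libraries and over all cells compared, reporter-positive cells had a log2 ratio of deletion-labelled over control of -0.37 (-0.65 to -0.08). Reporter-negative cells of the deletion-labelled library stood above those of the control, with a log2 ratio of 0.93 (0.71 to 1.15). These sums mix cells rich and poor in resident fibroblast genes, whose shares differ between the libraries, as described below. Among cells with under 100 resident-gene UMIs per 10000, reporter-positive cells stood at 9.47 CPM (7.22 to 12.2) in the deletion-labelled library. In the control they stood at 23.8 CPM (21.1 to 26.7). Reporter-negative cells under this limit stood at 26.8 CPM in the deletion-labelled library and 21.5 CPM in the control. Within the deletion-labelled library the level did not fall steadily along the eGFP classes and was lowest at 10 or more eGFP UMIs. It stood at 42.5 CPM at 0 eGFP UMIs and 26.9 at 1. At 2 to 9 it was 47.9 CPM (34 UMIs, 33.2 to 66.9), and at 10 or more 16.3. The cells with 1 eGFP UMI were deeper, with a median of 29798 UMIs against 18517 at 0. In the control the same 4 classes stood at 22.3, 19.7, 21.7 and 24.8 CPM. Over the 13 other settings tried for both groups the deletion-labelled log2 ratio lay between -1.38 and -0.97 and the control one between -0.01 and 0.22. Reads of the 3′ end do not show whether a transcript comes from an allele that has lost its floxed part.

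The share of cells with a Tcf21 UMI followed the sums. After each cell was thinned to 5000 UMIs, with no fibroblast left out as too shallow, 10.1% of reporter-positive and 10.3% of reporter-negative control fibroblasts had one. The thinned shares of the deletion-labelled library were 11.4% (8.27% to 15.2%) and 19.4% (16.6% to 22.4%). The unthinned shares were 41.4% and 37.7% in the control, against 26.2% and 47.9% in the deletion-labelled library. Leukocytes had a Tcf21 UMI in 0 of 2635 thinned cells in the control, which allows a share of up to 0.114%, and in 0.191% of 2098 in the deletion-labelled library. These leukocytes were chosen to have no UMI of the fibroblast genes, which leaves out droplets with more fibroblast RNA, so the part of free RNA in the Tcf21 sums was not tested.

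Without infarction Tcf21 was again lower in reporter-positive cells of the deletion-labelled library, and it was higher in those of the control. Tcf21 stood at 87.6 CPM in reporter-positive and 163.5 CPM in reporter-negative fibroblasts of the deletion-labelled library, a log2 ratio of -0.90. In the control without infarction it stood at 110.2 and 78.2 CPM, a log2 ratio of 0.50. Reporter-negative fibroblasts of the deletion-labelled libraries thus had the highest Tcf21 level of the 4 groups at both stages.

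**Figure D2:**
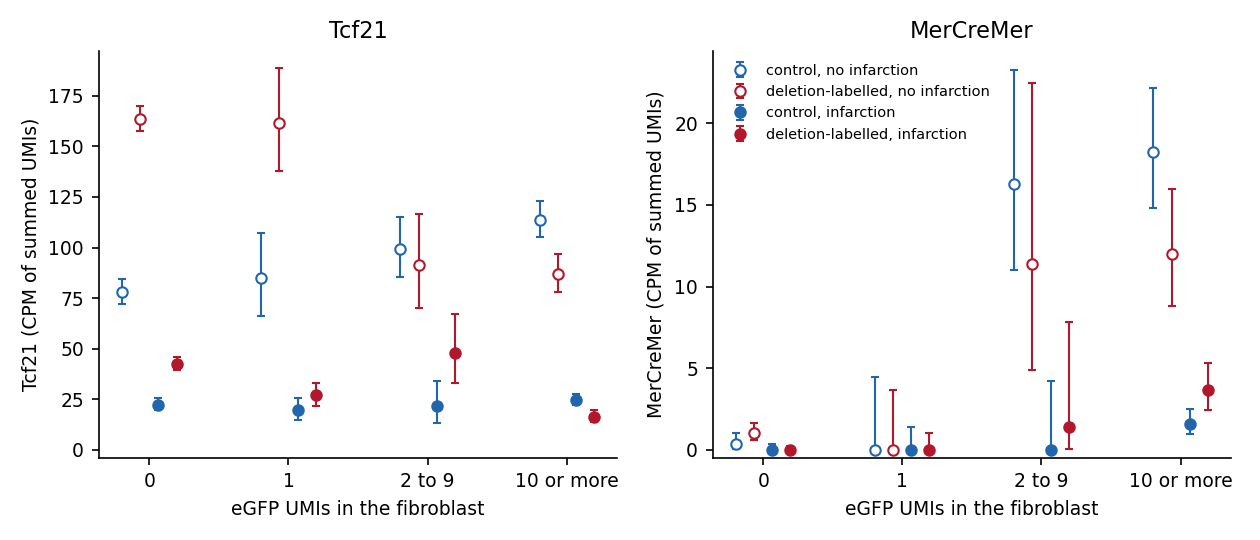
Tcf21 (left) and MerCreMer (right) in CPM of summed UMIs (vertical axes) by eGFP UMIs of the fibroblast (horizontal axes) in the 4 libraries, with exact Poisson 95% intervals that cover counting error. In the deletion-labelled libraries Tcf21 is lower at 10 or more eGFP UMIs than at 0, at 16.3 against 42.5 CPM after infarction, and MerCreMer after infarction is found only from 2 eGFP UMIs upward.

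The rest of the transcriptome differed little between reporter-positive and reporter-negative fibroblasts of the same library. Among genes with at least 30 UMIs over both sums and 10 CPM in 1 of them, 17 were at least 1.5-fold higher in reporter-positive control fibroblasts (0.207% of 8198 genes) and 99 were at least 1.5-fold lower (1.21%). The deletion-labelled library had 51 genes at least 1.5-fold higher (0.609% of 8370) and 83 at least 1.5-fold lower (0.992%). The median log2 ratio over all these genes was 0.003 in the control and 0.004 in the deletion-labelled library. The 1.5-fold limit tests nothing and only sorts genes by size of difference, and low genes pass it more easily: among genes with at least 50 CPM, 5 were higher and 15 lower in the control and 15 higher and 10 lower in the deletion-labelled library.

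The count depended on which cells were included and on how they were weighted. Leaving out cells with epicardial or mural genes, described below, brought the lower genes from 99 to 31 in the control and from 83 to 51 in the deletion-labelled library. Leaving out dividing cells (at least 2 UMIs of Mki67 and Top2a) raised the control counts to 82 higher and 209 lower genes. Averaging CPM over cells instead of summing UMIs gave 45 higher and 176 lower genes in the control and 78 higher genes in the deletion-labelled library.

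Of 7965 genes that met the minimum in both libraries, 76 were lower in the control and 63 in the deletion-labelled library, and 26 were lower in both, which is 34.2% of the control's genes and 41.3% of the deletion-labelled library's. Among higher genes, 12 and 33, only Cxcl10, an interferon-induced chemokine, was shared. Cxcl10 came from few cells: 29 reporter-positive and 26 reporter-negative cells in the control, and 6 and 26 cells in the other library. Across the 7965 genes the log2 ratios of the 2 libraries had a Pearson r of 0.30, a description over genes, which are not independent replicates.

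**Figure D3:**
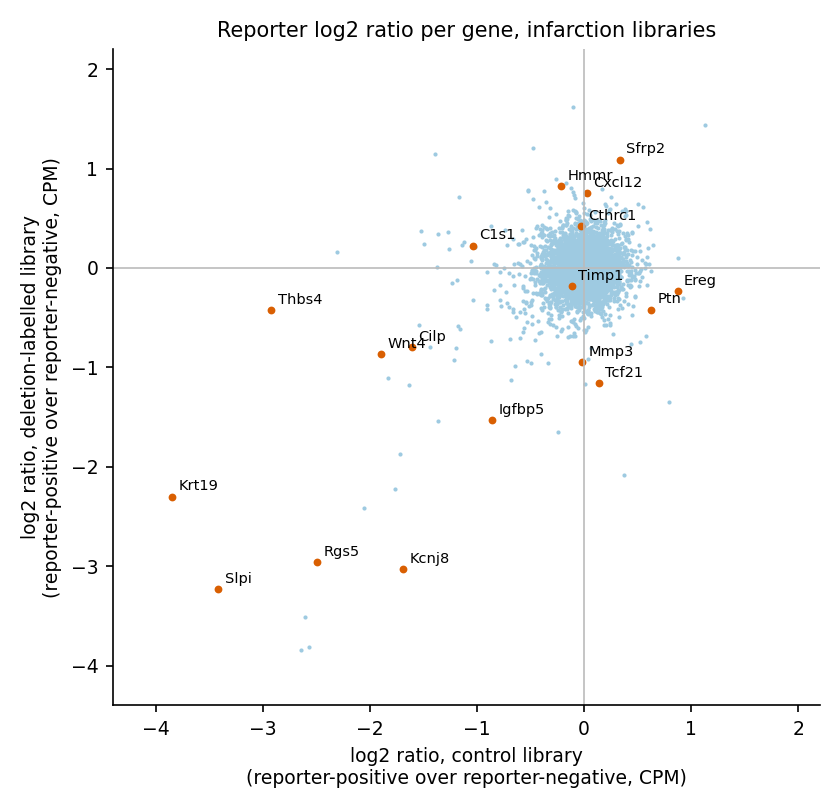
Log2 ratio of reporter-positive over reporter-negative CPM in the control (horizontal axis) and the deletion-labelled library (vertical axis), 1 point for each of 7965 genes, with named genes in orange. Most genes lie near 0 in both; Slpi, Rgs5, Kcnj8 and Krt19 are low in both libraries, and Tcf21 is low in the deletion-labelled library alone.

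The marker genes of activated and matrix-producing fibroblasts were at like levels in both reporter classes. Timp1, an inhibitor of matrix metalloproteinases, stood at 3135 CPM in reporter-positive and 3396 CPM in reporter-negative control fibroblasts, and at 2989 and 3392 CPM in the deletion-labelled library. Postn, the matricellular protein periostin, stood at 717 and 803 CPM in the control and at 1333 and 1478 CPM in the deletion-labelled library. Acta2, an actin of contractile fibroblasts, was at 1279 and 1189 CPM and at 874.5 and 754.4 CPM. None of these 3 differed by 1.5-fold between reporter classes of a library, and for each the sign of the difference was the same in both libraries.

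Cthrc1, a secreted protein of activated fibroblasts in scars, had a reporter ratio nearer to 0 in the control than in the deletion-labelled library. It stood at 412 CPM (400 to 423) and 419 CPM (406 to 432) in the control, and at 504 CPM (489 to 520) and 377 CPM (367 to 386) in the deletion-labelled library. Its log2 ratio was -0.03 in the control and 0.42 in the deletion-labelled library, under the 1.5-fold limit. Without the cell that held most of its UMIs these values were -0.06 and 0.45. Pdgfra, the receptor used in the rule, stood at 166 and 161 CPM in the control and at 243 and 226 CPM in the deletion-labelled library.

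Over the list of 30 activated fibroblast and contractile genes the median log2 ratio was -0.006 in the control and -0.01 in the deletion-labelled library. At the minimum used for lists, 10 UMIs in either sum, 2 members were at least 1.5-fold higher in the control and 1 in the deletion-labelled library, and none were lower. Over all genes at that minimum 3.3% were higher and 6.26% lower in the control, against 3.29% and 7.1% in the deletion-labelled library. Lrrc15, a membrane protein of myofibroblasts, was the member above the limit in both, on few UMIs: 33 against 6 UMIs in the control and 20 against 14 in the deletion-labelled library. Of 16 collagens 1 was lower in each library, Col18a1, a basement membrane collagen, at 10.2 and 22.8 CPM in the control and 13.8 and 21.1 CPM in the deletion-labelled library. Their median log2 ratio was -0.04 in the control and -0.14 in the deletion-labelled library. Col14a1, a fibril-associated collagen, leaned up in the deletion-labelled library only, with log2 ratios of 0.06 and 0.48. None of the 20 collagen processing and cross-linking genes, 23 secretory pathway genes (apart from 1 higher in the control) or 36 nuclear respiratory chain genes passed the limit in either library.

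The largest shared differences were in genes of other cell types of the heart's surface and vessel wall. Slpi, a secreted protease inhibitor of epithelia and neutrophils, stood at 11.5 CPM in reporter-positive and 123 CPM in reporter-negative control fibroblasts, and at 5.66 and 53.2 CPM in the deletion-labelled library. Its log2 ratio was -3.41 (-3.68 to -3.16) in the control and -3.23 (-3.69 to -2.81) in the deletion-labelled library. A few cells carried these sums: 1 cell held 44.7% of the reporter-negative UMIs of Slpi in the control and 68.0% in the deletion-labelled library. Without the cell with most UMIs the log2 ratios were -2.56 and -1.59, and without the cells with epicardial or mural genes described below they were -0.28 and -0.40. After thinning, 32.1% and 33.8% of leukocytes had a Slpi UMI, control first, and in the deletion-labelled library the gene was marked as possible free RNA.

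Most epicardial and mesothelial markers, which label the cell layer that covers the heart, were lower in reporter-positive cells. In the control 9 of 12 measured markers were at least 1.5-fold lower and none higher, with a median log2 ratio of -3.01. Of 11 measured in the deletion-labelled library 8 were lower and none higher, with a median of -2.30. Over all genes at the minimum used for lists, 6.26% were lower and 3.3% higher in the control. In the deletion-labelled library these shares were 7.1% and 3.29%. Of the measured markers, 1 lay above 0 in the control and 2 in the deletion-labelled library. The 12 markers summed to 251 and 431 CPM in the control, positive first. In the deletion-labelled library the sums were 447 and 455 CPM, so the summed level there was nearly equal. Krt19, a keratin of that layer, stood at 2.54 and 36.5 CPM in the control and at 2.17 and 10.7 CPM in the deletion-labelled library. Msln, mesothelin, had 18 UMIs in reporter-positive and 108 in reporter-negative control cells, and 0 and 89 in the deletion-labelled library. Wt1, a transcription factor of the epicardium, stood at 2.95 and 8.16 CPM and at 2.29 and 5.58 CPM, and its control ratio turned to 1.21 once cells with epicardial or mural genes were left out.

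The markers counted per cell were found in few cells. At least 2 UMIs of 5 epicardial genes (Msln, Upk3b, Upk1b, Krt19 and Lrrn4) were found in 9 of 367 reporter-positive (2.45%, 1.13% to 4.60%) and 18 of 321 reporter-negative control cells (5.61%, 3.36% to 8.72%). The deletion-labelled library had them in 2 of 351 (0.570%) and 14 of 758 (1.85%). The 18 and 14 reporter-negative cells held 92.1% and 86.3% of the Slpi UMIs of their group. The numbers of such cells are small and their intervals overlap within each library.

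Mural genes, of pericytes and smooth muscle, showed the same pattern. Rgs5, a regulator of G protein signalling that marks pericytes, stood at 20.1 CPM in reporter-positive and 113 CPM in reporter-negative control fibroblasts, and at 14.3 and 111 CPM in the deletion-labelled library. Its log2 ratios were -2.49 (-2.70 to -2.29) and -2.96 (-3.24 to -2.69). Kcnj8 and Abcc9, subunits of the potassium channel of pericytes, had log2 ratios of -1.69 and -1.77 in the control, against -3.03 and -2.23 in the deletion-labelled library. Of the mural markers 8 of 14 were lower in the control (median -0.98) and 10 of 15 in the deletion-labelled library (median -0.86), where 2 were higher. Of all genes, 6.26% were lower in the control, and 7.1% were lower and 3.29% higher in the deletion-labelled library. Without infarction Rgs5 had log2 ratios of -3.07 and -2.25, so the direction was the same at both stages.

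At least 5 UMIs of Rgs5, Kcnj8, Abcc9, Vtn and Myh11 were found in 13 reporter-positive (3.54%) and 16 reporter-negative control cells (4.98%). The deletion-labelled library had 5 (1.42%) and 32 such cells (4.22%), and the 16 and 32 cells held 98.6% and 98.9% of the reporter-negative Rgs5 UMIs. When fibroblasts also had to have a Pdgfra UMI, the log2 ratios of Rgs5, Kcnj8 and Abcc9 in the control turned to 1.84, 1.86 and 1.64, those of Kcnj8 and Abcc9 in the deletion-labelled library to 0.15 and 0.25, and the median of the mural markers to 0.30 in the control and 0.25 in the deletion-labelled library. Markers of Schwann and glial cells were lower as well, 7 of 8 in the control and 4 of 6 in the deletion-labelled library. Over all genes the lower shares were 6.26% and 7.1%. The Schwann and glial markers had summed levels of only 11.2 to 26.5 CPM in the 4 groups. Their control median turned to 0.52 when a Pdgfra UMI was required. Endothelial markers had median log2 ratios of -0.38 and -0.55, leukocyte markers of -0.28 and 0.04, cardiomyocyte markers of 0.12 and -0.10, valve interstitial markers of -0.49 and -0.15 and fibroblast markers of -0.07 and 0.03, control first. Cardiomyocyte markers summed to between 4.91 and 17.8 CPM, and leukocyte markers to between 216.7 and 421 CPM in the 4 groups against 29233 and 27768 CPM in leukocytes.

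Other genes lower in reporter-positive cells of both libraries belonged to no single list. Clu, the secreted chaperone clusterin, stood at 23.0 and 71.4 CPM in the control and at 22.8 and 51.5 CPM in the deletion-labelled library. Its control log2 ratio of -1.63 was -0.45 with 1 eGFP UMI as the limit and -3.79 with 4. Cilp, a matrix protein that binds TGF-beta, stood at 24.1 and 73.1 CPM and at 115 and 199 CPM, with log2 ratios of -1.60 and -0.79. Igfbp5, a binding protein of insulin-like growth factors, had log2 ratios of -0.86 and -1.53, and which library had the lower one changed when a Pdgfra UMI was required or cells with epicardial or mural genes were left out. Wnt4, a Wnt ligand, stood at 9.57 and 35.6 CPM and at 10.5 and 19.1 CPM, and its control ratio turned to 0.21 once cells with epicardial or mural genes were left out. Gm13889, a predicted gene, stood at 20.6 and 53.2 CPM and at 10.2 and 29.8 CPM, and its control ratio turned to 0.72 when a Pdgfra UMI was required. Tppp3, a tubulin-binding protein, had log2 ratios of -0.57 and -0.65.

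Within the control library, the genes lowest in reporter-positive fibroblasts included secreted and stress proteins. C3, the central complement component, stood at 79.5 CPM in reporter-positive and 143 CPM in reporter-negative cells, a log2 ratio of -0.84 (-0.96 to -0.73), against 368 and 357 CPM in the deletion-labelled library. Spp1, the matricellular protein osteopontin, stood at 677 and 1164 CPM, a log2 ratio of -0.78, against -0.17 in the deletion-labelled library. Igfbp6 had log2 ratios of -0.82 and 0.03, Flrt2, a membrane adhesion protein, -0.91 and -0.37, S100a1, a calcium-binding protein, -0.70 and -0.05, and Hspb1, a small heat shock protein, -0.70 and -0.40. Without cells with epicardial or mural genes the control ratios of C3, Flrt2, Hspb1, S100a1 and Igfbp6 were -0.04, -0.06, -0.12, -0.27 and -0.44, all under the 1.5-fold limit, while that of Spp1 was -0.92. Saa3, an acute phase protein, stood at 158 and 323 CPM, but 1 cell held 58.4% of its reporter-positive UMIs and its ratio turned to 0.52 without the cells with epicardial or mural genes.

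Genes higher in reporter-positive control fibroblasts were fewer and their ratios smaller. Ereg, epiregulin, a ligand of the EGF receptor, stood at 54.6 and 29.8 CPM in the control, a log2 ratio of 0.87 (0.67 to 1.08), and at 41.8 and 49.1 CPM in the deletion-labelled library, a ratio of -0.23. Ptn, the heparin-binding growth factor pleiotrophin, stood at 193 and 125 CPM in the control, a ratio of 0.62, and at 161 and 216 CPM in the deletion-labelled library, a ratio of -0.42. Col11a1, a fibrillar collagen of cartilage, had ratios of 0.51 and -0.05, and Amotl2, a junction protein of the Hippo pathway, 0.53 and -0.01. Plac8, Hmox1, Igfbp3, S1pr3, Ptgs2, Gadd45g and Ep400 had control ratios between 0.39 and 0.65. Plac8, Igfbp3 and Hmox1 kept 0.30, 0.31 and 0.36 without their top cell. Rhox5, a homeobox gene, was above 0 in both libraries, at 0.55 and 0.61, and was found in 56 and 35 control cells and in 52 and 80 cells of the deletion-labelled library.

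Within the deletion-labelled library, secreted regulators were among the higher genes. Sfrp2, a secreted Wnt modulator, stood at 249 CPM in reporter-positive (238 to 260, 172 cells) and 117 CPM in reporter-negative fibroblasts (112 to 122, 241 cells), a log2 ratio of 1.09, against 165 and 131 CPM and 0.34 in the control. Cxcl12, the chemokine of the receptor CXCR4, stood at 362 and 215 CPM, a ratio of 0.75, against 210 and 206 CPM and 0.03 in the control. Adm, the peptide adrenomedullin, stood at 98.6 and 60.2 CPM, a ratio of 0.71, and Fgl2, a fibrinogen-like secreted protein, at 55.6 and 36.3 CPM, a ratio of 0.62. Efemp1, a fibulin of elastic fibres, stood at 34.2 and 21.1 CPM, a ratio of 0.70, against -0.47 in the control. Myoc, myocilin, stood at 79.8 and 27.0 CPM, a ratio of 1.57, and had only 3 and 5 UMIs in the control. With 1 eGFP UMI as the limit the ratios of Adm, Efemp1 and Fgl2 were 0.41, 0.43 and 0.34, under the 1.5-fold limit.

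The share of cells with a UMI went the same way for the best measured of these. After thinning, 53.6% of reporter-positive (48.2% to 58.9%) and 42.3% of reporter-negative cells (38.8% to 46.0%) of the deletion-labelled library had a Cxcl12 UMI, and 39.0% and 42.1% in the control. For Sfrp2 the thinned shares were 33.3% (28.4% to 38.5%) and 18.5% (15.8% to 21.4%) in the deletion-labelled library and 23.7% and 25.2% in the control. Unthinned, Cxcl12 shares were 74.1% and 69.1% against 71.1% and 67.6%, and Sfrp2 shares 49.0% and 31.8% against 45.8% and 42.4%. In leukocytes, at a median of 14572 and 13804.5 UMIs, the thinned Cxcl12 share was 1.29% in the control and 7.58% in the deletion-labelled library, and the Sfrp2 share 0.114% and 0.238%.

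Haemoglobin genes topped the deletion-labelled list on the UMIs of 1 cell. Hbb-bs stood at 429 CPM in reporter-positive and 20.7 CPM in reporter-negative fibroblasts, and a single cell held 97.3% of the reporter-positive UMIs. Without the cell with most UMIs the log2 ratios of Hbb-bt, Hbb-bs, Hba-a1 and Hba-a2 were -0.69, -0.85, -0.83 and -0.68. These genes are pairs of near-identical copies between which counting can split reads, and none of them had more than 5 UMIs in either control group.

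Genes lowest in reporter-positive cells of the deletion-labelled library included matrix and matrix-degrading genes. Mmp3, the protease stromelysin, stood at 48.0 CPM (43.4 to 53.0) and 92.6 CPM (88.1 to 97.3), a log2 ratio of -0.95, against 193 and 196 CPM and -0.02 in the control. Mgp, matrix Gla protein, an inhibitor of calcification, stood at 4017 and 5921 CPM, a ratio of -0.56, against 5172 and 6457 CPM and -0.32 in the control. Ckb, brain type creatine kinase, stood at 197 and 305 CPM, a ratio of -0.64. Ifi27l2a, an interferon-induced gene, stood at 304 and 461 CPM, a ratio of -0.60, and Ppp1r14a, an inhibitor of myosin phosphatase, had a ratio of -0.68. Cdc42ep2 had a ratio of -0.56, against -0.09 in the control. The thinned share of cells with an Mmp3 UMI was 7.98% (5.37% to 11.3%) and 10.8% (8.70% to 13.2%), intervals that overlap. Unthinned it was 17.7% and 21.2%, with medians of 19563 and 18517 UMIs.

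The difference between the libraries was taken as the log2 ratio in the deletion-labelled library minus that in the control. It was at least 1.5-fold in size upward for 130 genes (1.63% of 7965) and downward for 66 (0.829%). Among genes with at least 50 CPM in 1 of the sums, 16 and 5 passed. Ereg and Ptn had the lowest differences among the abundant genes, -1.11 (-1.38 to -0.84) and -1.04 (-1.18 to -0.91), followed by Mmp3 at -0.93. With cells of 1 eGFP UMI counted as reporter-positive, the Mmp3 difference turned to 0.03 and its ratio in the deletion-labelled library to -0.10, and averaging CPM over cells gave -0.25 and -0.32. Gm47283, a predicted gene, had -0.77 (0.20 in the control and -0.57 in the deletion-labelled library). Abi3bp, a matrix protein, also had -0.77, but its control ratio of 0.87 was 0.25 without the cell that held most of its UMIs. S1pr3, a receptor of sphingosine-1-phosphate, had -0.59, Igfbp5 -0.67 and Gm10260 -0.58. Gm10260 was nearly confined to the control library, at 107 and 118 CPM there and 0.963 and 1.59 CPM in the deletion-labelled library.

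Upward, Thbs4, the matricellular thrombospondin of tendon, had a difference of 2.50 (2.03 to 2.96). It stood at 4.17 and 31.6 CPM in the control, in 15 and 17 cells, and at 42.0 and 56.4 CPM in the deletion-labelled library. C1s1, a protease of the complement cascade, stood at 13.6 and 27.8 CPM in the control and 71.0 and 60.8 CPM in the deletion-labelled library, a difference of 1.26 (0.95 to 1.58). Fmo2, a monooxygenase of resident fibroblasts, had a difference of 1.12, Hmmr 1.04 and Fgl2 1.03. Apod, apolipoprotein D, had 1.89, but 1 cell held 73.6% of its reporter-negative UMIs in the control, and without the cell with most UMIs the difference turned to -0.32. Il11, a cytokine of fibroblasts, behaved alike: 1 cell held 66.4% of its reporter-negative UMIs in the control and its difference went from 2.54 to -0.02.

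Complement genes were lower in reporter-positive cells of the control. Of 11 measured, 6 were at least 1.5-fold lower in the control and 0 in the deletion-labelled library, with median log2 ratios of -0.80 and 0.08. Over all genes at the minimum used for lists the lower shares were 6.26% and 7.1%, control first. The difference was upward by at least 1.5-fold in 7 of 11 (7.01% of all genes at that minimum), with a median of 0.89. Besides C3 and C1s1, Cfb, factor B, stood at 5.89 and 17.1 CPM in the control and at 7.23 and 10.7 CPM in the deletion-labelled library. C4b stood at 6.46 and 11.8 CPM and at 34.4 and 25.7 CPM, and C2 at 1.39 and 5.30 CPM and at 3.25 and 3.05 CPM. When cells with epicardial or mural genes were left out, the control ratios of C4b, Cfb and C2 were 0.11, -0.27 and -0.50 and the C3 difference was 0.14. Without those cells the list's median was -0.27 in the control and its difference 0.30, so the cells with epicardial or mural genes moved with this result. With 1 eGFP UMI as the limit the median difference was 0.22.

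Summed UMIs of G2 and M-phase genes were higher in reporter-positive cells of the deletion-labelled library. Of 36 genes of G2 and M phase, 8 were at least 1.5-fold higher in reporter-positive cells of the deletion-labelled library and none lower. Of all genes at the minimum used for lists 3.29% were higher and 7.1% lower there. The median log2 ratio of the 36 genes was 0.39. In the control none passed either limit, against 3.3% of all genes higher and 6.26% lower, and the median was -0.10. The difference was upward by at least 1.5-fold in 14 of 36 and downward in none, against 7.01% and 6.08% over all genes at that minimum. Hmmr, a spindle and hyaluronan-binding protein, stood at 95.9 and 111 CPM in the control and at 93.4 and 52.8 CPM in the deletion-labelled library. Cenpe, a kinetochore motor, stood at 66.1 and 71.2 CPM and at 53.5 and 31.5 CPM, and Kif23, a motor of cell division, at 34.0 and 37.1 CPM and at 36.5 and 20.9 CPM. Ccnb1, cyclin B1, and Bub1b, a spindle checkpoint kinase, had ratios of -0.41 and -0.33 in the control, against 0.39 and 0.52 in the deletion-labelled library. Once dividing cells were left out, the differences of Cenpe, Ccnb1 and Bub1b turned to -0.25, -0.22 and -0.75 and the Kif23 ratio in the deletion-labelled library to -0.23. With the mean of CPM per cell the deletion-labelled ratios of Cenpe and Kif23 were 0.48 and 0.53, under the 1.5-fold limit.

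Genes of S phase had medians of 0.18 in the control and -0.04 in the deletion-labelled library. Of 28, 2 were at least 1.5-fold higher in the control, against 3.3% of all genes, and 1 was lower in the deletion-labelled library, against 7.1%. Few members passed the limit, but 27 of 28 lay above 0 in the control, where the median over all genes was -0.005. In the deletion-labelled library 12 lay above 0 and 16 below. The difference was downward by at least 1.5-fold in 4 of 28 and upward in none, against 6.08% and 7.01% of all genes. It was below 0 in 24 of 28, with a median of -0.23 against 0.005 over all genes. Cdc6, which licenses replication origins, stood at 13.3 and 7.04 CPM in the control and at 5.66 and 7.10 CPM in the deletion-labelled library, and its control ratio was -0.23 once dividing cells were left out. E2f8, a repressor of the E2F family, stood at 7.28 and 4.38 CPM and at 2.05 and 3.58 CPM.

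The share of dividing cells differed little between reporter classes. At least 2 UMIs of Mki67 and Top2a were found in 40.6% of reporter-positive (35.5% to 45.8%) and 34.6% of reporter-negative control cells (29.4% to 40.1%). The deletion-labelled library had them in 22.5% (18.2% to 27.2%) and 22.0% (19.1% to 25.2%), so the reporter classes there had like shares. Thinned shares with an Mki67 UMI were 25.9% and 23.4% in the control, against 13.4% and 13.1% in the deletion-labelled library, and unthinned 43.3% and 37.1%, and 23.1% and 23.2%. Within the dividing cells of the deletion-labelled library the other G2 and M genes summed to 4955 CPM in 79 reporter-positive and 3928 CPM in 167 reporter-negative cells, and the S-phase genes to 1529 and 1696 CPM. Within those of the control they summed to 4575 CPM in 149 and 5168 CPM in 111 cells, and the S-phase genes to 1926 and 1718 CPM. Per cell, over all cells compared, G2 and M genes had medians of 7.12 and 6.93 UMIs per 10000 in the control, positive first, and of 3.91 and 4.04 in the deletion-labelled library. Their means were 23.9 and 23.3 in the control, against 15.2 and 13.3 in the deletion-labelled library, so the median in the deletion-labelled library and the control values did not go the way of the sums.

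Of the lists of other functions, tendon and cartilage type genes in the control lay farthest from 0. Matricellular genes had medians of -0.14 in the control, with 4 of 30 lower, and -0.07 in the deletion-labelled library, with 1 higher and 2 lower. Tendon and cartilage type genes had medians of -0.97 (6 of 11 lower) and -0.33 (5 of 12 lower). Over all genes at the minimum used for lists 6.26% were lower in the control. In the deletion-labelled library 3.29% were higher and 7.1% lower, and the matricellular counts there were near these shares. Comp, a cartilage matrix protein, stood at 12.7 and 35.8 CPM in the control and at 25.0 and 21.3 CPM in the deletion-labelled library. Chemokines, cytokines and acute phase genes had medians of 0.08 and 0.18, with 8 of 29 higher in the deletion-labelled library, against 3.29% of all genes, and 2 of 27 in the control, against 3.3%. Within this list Ccl11, the chemokine eotaxin, had log2 ratios of 0.58 in the control and -0.68 in the deletion-labelled library, the latter -0.28 once dividing cells were left out. Medians lay between -0.15 and 0.08 in both libraries for the lists of fibroblast transcription factors, TGF-beta and BMP genes, Wnt modulators, interferon-stimulated genes, secretory pathway genes, glycolysis and hypoxia genes, immediate-early genes, and genes of the PDGF, FGF and IGF axis.

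**Figure D4:**
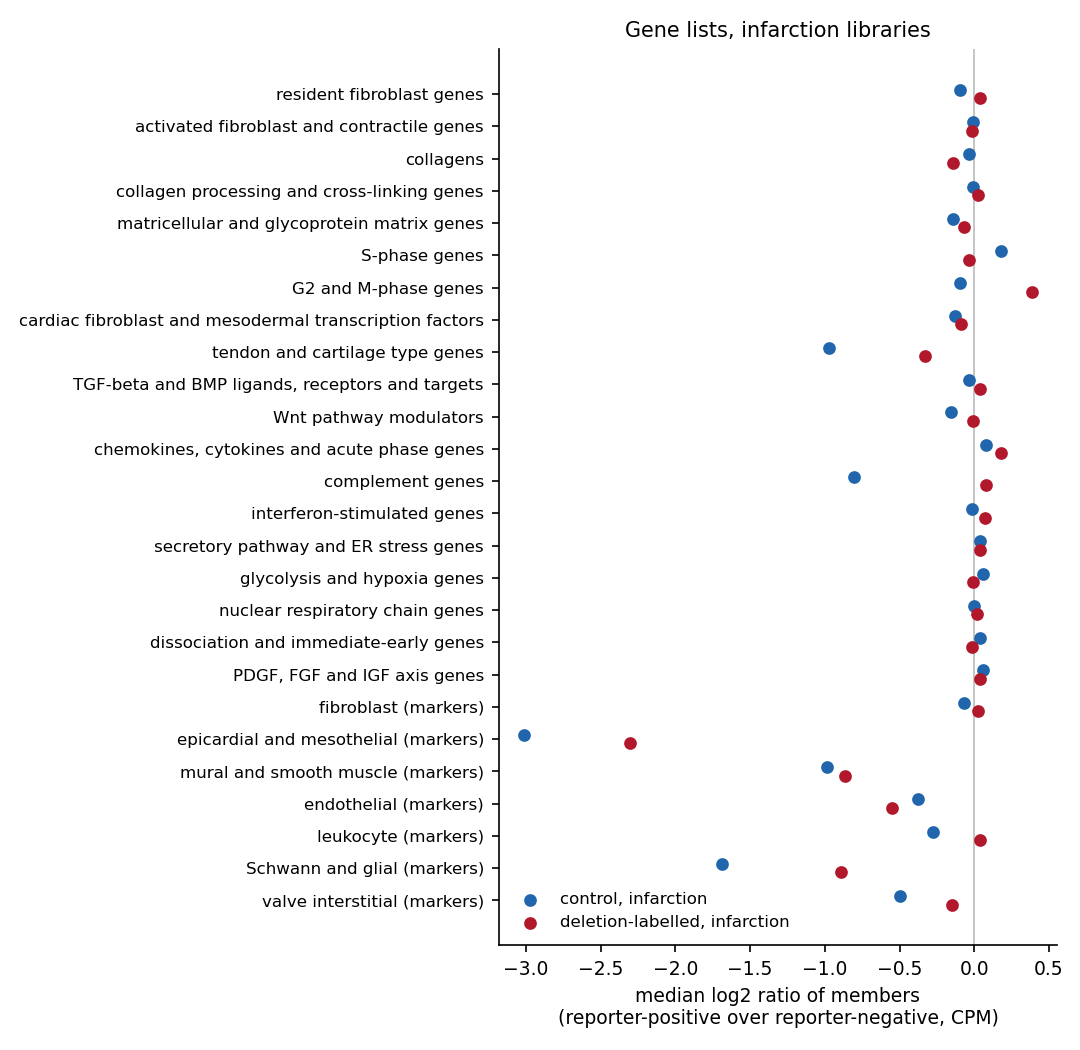
Median log2 ratio of reporter-positive over reporter-negative CPM (horizontal axis) for gene lists and marker lists (vertical axis) in the 2 infarction libraries. The cardiomyocyte markers and the reporter and inserted sequences are not drawn. Epicardial markers lie lowest in both, at -3.01 and -2.30, complement genes are low in the control alone, at -0.80, and G2 and M genes are high in the deletion-labelled library alone, at 0.39.

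In resident fibroblast genes the libraries differed from each other far more than the reporter classes within them, and the same way in both classes. The resident list holds 28 genes of unstimulated cardiac fibroblasts. In reporter-positive cells 25 of 28 were at least 1.5-fold higher in the deletion-labelled library than in the control, against 12.7% of all genes, with a median log2 ratio of 1.97. In reporter-negative cells 24 of 28 were higher, against 12.6% of all genes, with a median of 2.04. None were lower in either class, against 6.82% and 6.45% of all genes. Clec3b, tetranectin, stood at 15.6 and 15.5 CPM in the control and at 384 and 326 CPM in the deletion-labelled library. Pi16, a peptidase inhibitor of adventitial fibroblasts, stood at 26.6 and 34.6 CPM and at 457 and 363 CPM, with 23.3 and 37.6 CPM in leukocytes, so its control level was near that in leukocytes. Gsn, the actin-severing protein gelsolin, stood at 258 and 319 CPM and at 2297 and 3200 CPM.

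Within a library the resident list hardly separated the reporter classes. Its median reporter log2 ratio was -0.10 in the control, with 2 of 26 members lower, and 0.04 in the deletion-labelled library, with 1 of 28 lower. Of all genes 6.26% and 7.1% were lower, control first, so these counts were near or below the background. Pi16 had a ratio of -0.38 in the control and 0.33 in the deletion-labelled library. Dpep1, a membrane dipeptidase, and Gsn had deletion-labelled ratios of -0.48 each. Cxcl14, a chemokine of resident fibroblasts, had ratios of 0.15 and -0.24.

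Per cell, resident-list UMIs had medians of 22.1 and 24.0 per 10000 in the control, positive first, and of 64.0 and 60.1 in the deletion-labelled library. Cells with at least 100 per 10000 made up 2.72% of reporter-positive and 2.80% of reporter-negative control cells. In the deletion-labelled library they made up 41.9% (36.7% to 47.2%) and 42.3% (38.8% to 46.0%). This limit was chosen after the values were seen and cuts a continuous range, and 21 and 50 cells of the deletion-labelled library lay between 80 and 120. These cells were shallower, with medians of 11871 and 12240 UMIs against 29267 and 28492 below the limit.

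The lower Tcf21 of reporter-positive cells in the deletion-labelled library was found on both sides of that limit. Among cells with at least 100 resident UMIs per 10000, Tcf21 stood at 49.9 CPM (40.5 to 60.8) in reporter-positive and 88.4 CPM (79.8 to 97.7) in reporter-negative cells, a log2 ratio of -0.83 (-1.16 to -0.50). Among the other cells it stood at 9.47 CPM (7.22 to 12.2) and 26.8 CPM (24.0 to 29.8), a ratio of -1.50 (-1.92 to -1.10). In the control the cells below the limit had 23.8 and 21.5 CPM, a ratio of 0.15 (-0.12 to 0.41), and the cells above it had only 14 and 11 UMIs of the gene. Cthrc1 in the deletion-labelled library was far lower above the limit than below it, and higher in reporter-positive cells on both sides. It stood at 83.9 CPM (71.6 to 97.8) and 50.8 CPM (44.3 to 58.0) above the limit and at 634 and 488 CPM below it.

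**Figure D5:**
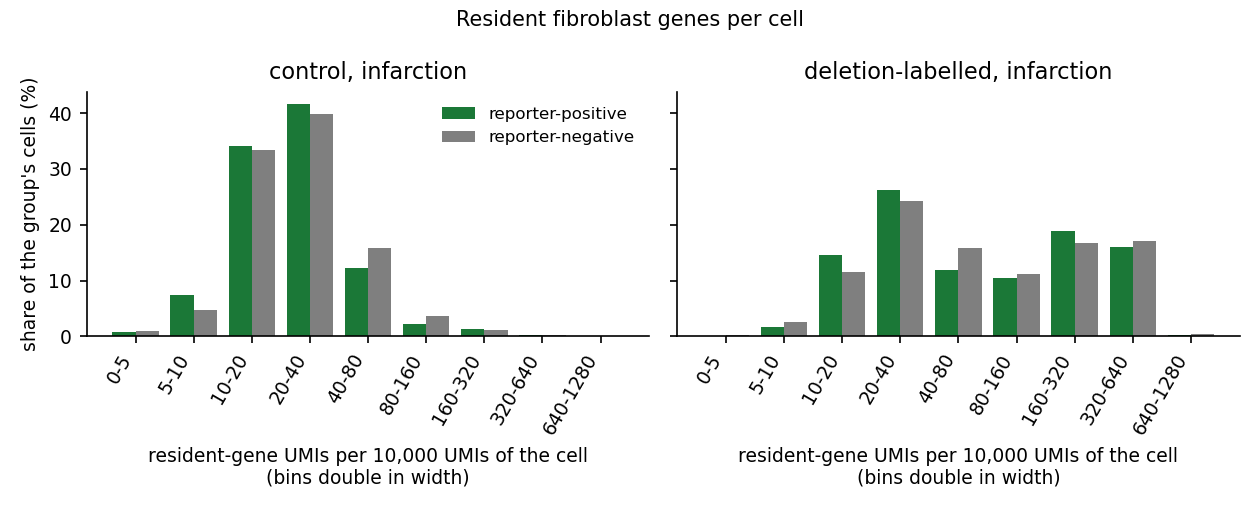
Share of cells (vertical axis, percent of the group) by resident-list UMIs per 10000 UMIs of the cell (horizontal axis, bins that widen to the right) for reporter-positive (green) and reporter-negative (grey) fibroblasts. The classes overlap in each library, while 41.9% and 42.3% of deletion-labelled cells lie at 100 or more, against 2.72% and 2.80% in the control.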

How the data were processed

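UMI counts of each gene in each barcode were deposited as whole numbers. They come from Cell Ranger 5.0.1, per the file headers, on mm10, per the submitters' processing notes; other settings are not given in the sources used here. Of 32287 features 2 are added sequences, eGFP and MerCreMer. For each group the UMIs of its cells were summed and divided by their total to give CPM (Python 3.11.15, numpy 2.4.6, scipy 1.17.1, scanpy 1.11.5). In ratios, sums under 3 UMIs were raised to a floor of 3 UMIs, and no ratio is given where neither sum exceeded it. Ratios have exact conditional 95% intervals, CPM exact Poisson ones, shares exact Clopper-Pearson ones, and differences of log2 ratios a normal one from the 4 counts. The ratio code was tested on simulated data.

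The cells compared, the 19 gene lists, the 9 marker lists and the 1.5-fold limit were chosen with earlier results of these data known. Genes were named as the 12 highest and 12 lowest log2 ratios of each infarction library and the 8 highest and 8 lowest differences, from genes with 50 CPM and 30 UMIs in at least 1 sum. Left out were genes of the cell rule, mitochondrial genes, symbols with several identifiers and possible free RNA (both sums under 0.1 of the level in leukocytes or endothelial cells). The rule adds the 2 members of each list farthest from 0 each way, members of the fibroblast, epicardial and reporter lists, and Tcf21, MerCreMer, eGFP, Timp1, Cthrc1 and Pdgfra; list members under 30 UMIs in both sums are not described unless their UMIs are given. Kcnj8, Abcc9, Acta2, Clec3b, Gsn and Pi16 were named after their values were seen. Alternatives changed the eGFP limit, depth and mitochondrial limits, scaling, weighting of cells, doublets (Scrublet at 0.8% per 1000 barcodes) and the cells included.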

Additional observations from a re-analysis of the deposited data

Results flagged for a closer look

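For 16 named genes the reporter log2 ratio lay above 0 in one infarction library and below 0 in the other, each beyond its own counting interval, and the ratios differed by at least 1.5-fold. The difference was not tested, because each group is 1 library. With the deletion-labelled value minus the control value, the ligands and secreted factors Ereg, Ptn and Ccl11 had differences of -1.11, -1.04 and -1.26, so reporter-positive cells were higher in the control and lower in the deletion-labelled library. The predicted gene Gm47283 had -0.77 and the S-phase gene E2f8 -1.54.

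The remaining genes went the other way. The G2 and M-phase genes Hmmr, Bub1b and Ccnb1 had differences of 1.04, 0.84 and 0.80. The complement genes C1s1 and C4b had 1.26 and 1.29. The resident fibroblast genes Fmo2, Pi16 and Apod had 1.12, 0.71 and 1.89, and the secreted proteins Fgl2, Efemp1 and Il11 had 1.03, 1.17 and 2.54. The values of Apod and Il11 turned to -0.32 and -0.02 without the 1 cell with most of their UMIs. Without dividing cells the differences of Bub1b and Ccnb1 turned to -0.75 and -0.22. Without cells with epicardial or mural genes the control ratio of C4b turned to 0.11. The control level of Pi16 was near that in leukocytes, as given above.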

How the results depend on the processing

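No paired analysis was possible because there was only 1 library in a group, and the reporter comparison is already made within each library. Over the settings run, the Tcf21 ratio lay between -1.38 and -0.97 in the deletion-labelled library and between -0.014 and 0.22 in the control, and the activated medians lay between -0.02 and 0.03 in the control and between -0.06 and 0.02 in the deletion-labelled library. Single genes and other lists were set against these alternatives 3895 times with a change within their error and 702 times with a larger one. Another 51 times a main value of at least 1.5-fold in size reversed its direction. The number of genes at least 1.5-fold higher in the control, 17, moved to 45 with the mean of CPM per cell, 82 without dividing cells, 26 with a Pdgfra UMI required and 5 at 50 CPM. The number lower there, 99, moved to 176, 209 and, without cells with epicardial or mural genes, 31, and to 15 at 50 CPM. The deletion-labelled library's 51 higher genes became 78 with the mean per cell and 15 at 50 CPM, and 83 lower genes became 51 without epicardial or mural cells and 10 at 50 CPM. Upward differences, 130, became 224 without dividing cells and 16 at 50 CPM, and downward ones, 66, became 170 with the mean per cell, 200 without dividing cells and 5 at 50 CPM. With 1 eGFP UMI as the limit the reporter shares were 57.8% and 38.0% after infarction and 48.3% and 25.4% without it, control first, and the resident median in the deletion-labelled library was -0.13. With 10 eGFP UMIs the shares were 25.9% in the deletion-labelled infarction library and 30.9% and 17.4% without infarction, and thinning gave 40.5% in the control without infarction.

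Directions reversed as follows, counting only results whose main value was at least 1.5-fold in size. Sign changes of smaller values, such as those of Cxcl14 in both libraries, are not listed. With 1 eGFP UMI as the limit, Saa3 in the control gave 0.012, and the differences of Saa3, Mmp3, Krt18 and Kcnj8 gave -0.54, 0.032, -2.28 and 0.21. With 4 and 10 eGFP UMIs the difference of Msln gave 1.64 and 1.66 and that of Krt19 -0.17 and -0.15. Without possible doublets Apod in the control gave 0.30, the Schwann and glial median in the control 0.000899 and Hbb-bs in the deletion-labelled library -0.021. Without dividing cells Cdc6 in the control gave -0.23, Hbb-bt, Hbb-bs, Hba-a1, Hba-a2 and Kif23 in the deletion-labelled library -0.84, -1.25, -1.38, -0.91 and -0.23, and the differences of Cenpe, Ccnb1, Bub1b and Msln -0.25, -0.22, -0.75 and 1.07. With a Pdgfra UMI required, control ratios gave 1.84 for Rgs5, 0.72 for Gm13889, 0.36 for Apod, 1.86 for Kcnj8 and 1.64 for Abcc9, and medians 0.30 for mural and 0.52 for Schwann and glial markers. Deletion-labelled Kcnj8, Abcc9 and the mural median gave 0.15, 0.25 and 0.25, and the differences of Igfbp5 and Lrrc15 gave 0.34 and 0.24. Without epicardial or mural cells Saa3, Wt1, Wnt4 and C4b in the control gave 0.52, 1.21, 0.21 and 0.11, and the differences of Saa3, Igfbp5 and Wnt4 -0.95, 0.35 and -1.02. Without the 1 cell with most UMIs, which along with 10 eGFP UMIs was added after seeing the data, Il11, Hbb-bs and Apod in the control gave 0.18, 0.090 and 0.40, Hbb-bt, Hbb-bs, Hba-a1 and Hba-a2 in the deletion-labelled library -0.69, -0.85, -0.83 and -0.68, and the differences of Il11, Hbb-bs and Apod -0.021, -0.94 and -0.32. These settings leave out cells or move the limit, and the cause was not tested beyond that. The sums hold 688 and 1109 cells, and intervals over UMIs do not cover the spread between cells, as the haemoglobin genes, Apod and Il11 show.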
